A study of Mus musculus with 12 samples.

Results

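The genes described here encode the extracellular matrix of the mouse pituitary gland and the enzymes that remodel it: the collagens, laminins, fibulins, matrix metalloproteinases (MMPs), tissue inhibitors of metalloproteinases (TIMPs), the ADAMTS and ADAMTS-like families, and single matrix genes such as Dcn, Sparc, Hspg2, Fn1 and Tnc. They were chosen by gene symbol, with Col25a1 set aside. Of 112 such genes with 242 probes on the array, 59 genes with 84 probes were tested, among 10802 named genes tested in all. A probe was tested when its signal stood above negative control beads (detection p under 0.05) on at least 4 of 12 arrays.

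Whole pituitaries came from 12 wild-type c57BL6/J females that were allocated at 8 weeks of age to mating or to a virgin group. Dams mated with c57BL6/J studs and taken at e15.5 made up the Pregnant group (n = 8), and virgin females the Non-pregnant group (n = 4). Each gland was hybridised to its own array on Illumina MouseWG-6 v2.0 BeadChips. The females came from several litters, but nothing in the sources used here ties an animal to its litter.

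The extracellular matrix is the secreted scaffold around cells. Fibrillar collagens give it tensile strength, and the basement membrane beneath epithelia and around capillaries is a sheet of type IV collagen and laminin tied together by nidogens and perlecan. In the pituitary such a membrane surrounds the cords of endocrine cells and the sinusoidal capillaries that carry their hormones away, and the stromal matrix is made largely by fibroblast-like and perivascular cells. MMPs and ADAMTS proteases cut these proteins, and TIMPs hold the proteases in check.

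Between 17217 and 18392 probes were detected on the Pregnant arrays and between 17789 and 18572 on the Non-pregnant arrays. Among them were 72 to 81 matrix probes on the Pregnant arrays and 81 to 91 on the Non-pregnant arrays. On the first principal component of all tested probes (24.5% of the variance) Non-pregnant replicate 4 lay at 0.25, far from the remaining Non-pregnant arrays at -32.8 to -21.3, and correlated best with Pregnant replicate 8. All 7 pituitary hormone genes examined passed the detection filter, and 1 was called: Lhb, the luteinising hormone beta subunit gene, was lower, at -0.91 ± 0.11 on the log2 scale (limma, adjusted p = 0.000513). The groups also did not overlap for Gh, the growth hormone gene, at -0.28 ± 0.09, while Fshb was at 1.61 ± 0.48 with overlapping groups (adjusted p = 0.107 and 0.0945). All 5 tested red cell marker genes were higher in Pregnant glands, and their mean log2 deviation from the midpoint of the group means ran between 0.45 and 1.75 on the Pregnant arrays and between -1.20 and -0.78 on the Non-pregnant arrays. The part of red cell RNA and of the hormone cells in the matrix results was not tested.

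Most matrix genes did not pass the test between Pregnant and Non-pregnant glands, and the few that did were collagens and laminins that are not part of the fibrillar scaffold. Col17a1, the transmembrane collagen of hemidesmosomes, was 2.19-fold higher in Pregnant glands, and Lamc3, a laminin gamma chain gene, was 1.52-fold higher. Col23a1, another transmembrane collagen gene, was 1.84-fold lower, the laminin chain genes Lamb2 and Lama5 were 1.72-fold and 1.41-fold lower, and the collagen VIII gene Col8a1 was 1.38-fold lower. No fibrillar or type IV collagen, proteoglycan, MMP, TIMP or ADAMTS gene was called. To be called, a gene needed a probe with an adjusted p under 0.05 (limma, two-sided, Benjamini-Hochberg over all 18626 tested probes) and a difference of at least 0.32 on the log2 scale, the study's fold threshold.

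Thus 6 of 59 matrix genes (10.2%) were called, 2 higher and 4 lower, where 3.07% of all named genes were called, 1.51% higher and 1.56% lower. The counts depended on single arrays of either group. Leaving out a single Pregnant array could lose the call of Lamc3 or Col8a1, as given below. Without Non-pregnant replicate 4 there were 3 matrix genes higher and 6 lower, among 400 and 475 of all named genes, while without replicate 1 there was 1 each way, among 75 and 61, and without replicate 3 again 1 each way, among 59 and 54. At an unadjusted p under 0.05 the share was 12 of 59 (20.3%), close to the 17.6% over all named genes. The median log2 difference (Pregnant minus Non-pregnant) was -0.06 over the matrix genes and -0.01 over all named genes, and 41 of 59 matrix genes (69.5%) were below 0 against 51% of all. Both depended on single Non-pregnant arrays. Many matrix genes were high on Non-pregnant replicate 2, as described further on. Without that array the matrix median was -0.00 and 30 of 59 matrix genes (50.8%) were below 0, against 50.2% of all named genes. Without Non-pregnant replicate 3 the matrix median was -0.12, with 49 of 59 matrix genes (83.1%) below 0 against 51.1% of all. Without Non-pregnant replicate 1 it was -0.09, with 44 of 59 (74.6%) below 0 against 51% of all.

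**Figure D1:**
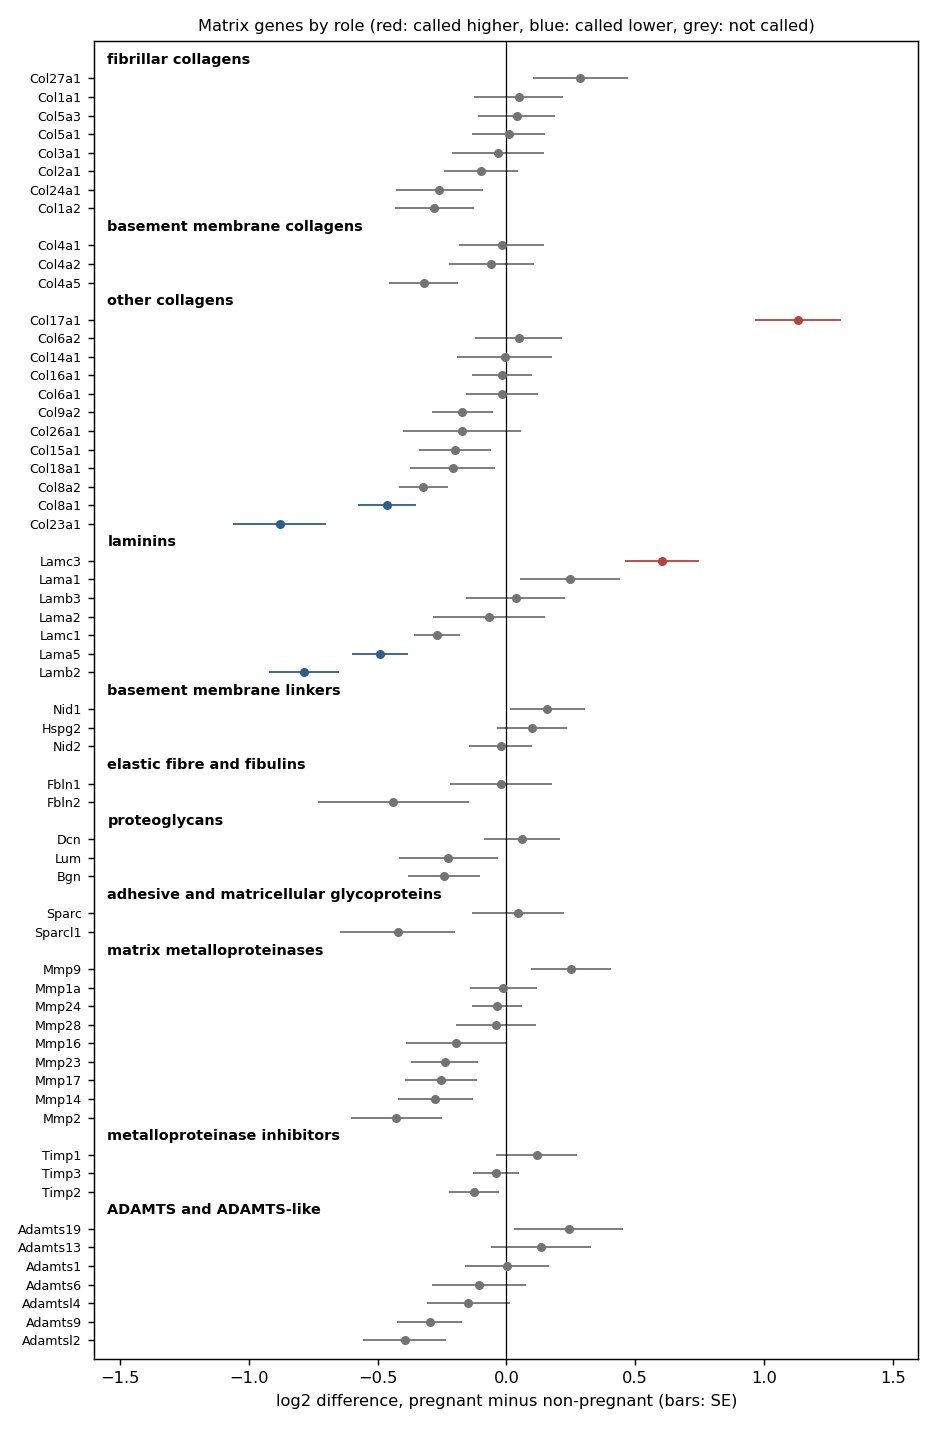
Log2 difference (Pregnant minus Non-pregnant, horizontal axis) of the 59 tested matrix genes, grouped by role, with bars for the SE. Red points were called higher, blue points lower and grey points were not called. The called genes lie among the other collagens and the laminins, between -0.88 for Col23a1 and 1.13 for Col17a1, and no other role group holds one.

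Col17a1 encodes collagen XVII, which spans the plasma membrane and anchors epithelial cells to the basement membrane. Its log2 intensity was 7.72 at the lowest, 8.12 at the median and 8.56 at the highest of the 8 Pregnant arrays, against 6.90, 7.43, 7.05 and 6.71 on the Non-pregnant arrays. Every Pregnant array was above every Non-pregnant array. The log2 difference was 1.13 ± 0.17 (SE; adjusted p = 0.00245). The gene had 3 tested probes and each of them was called, the others at 1.13 ± 0.18 (adjusted p = 0.00336) and 0.67 ± 0.14 (adjusted p = 0.0180). On the third of these probes the groups overlapped slightly, since Pregnant replicate 8 (6.09) fell below Non-pregnant replicate 1 (6.14). Col17a1 was called whichever single array was left out, with adjusted p between 0.00166 and 0.0158.

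Collagen XVII is held in hemidesmosomes with the integrin of the Itga6 and Itgb4 chains and with a laminin that contains the Lamb3 chain. These partners fall outside the rule for named genes and were looked up after the Col17a1 values were seen. Itgb4 had a log2 difference of -0.02 ± 0.16, Itga6 of -0.05 ± 0.16 and Lamb3 of 0.04 ± 0.19 (adjusted p = 0.965, 0.900 and 0.950). None of them was called, and their levels overlapped between the groups. Itga6 averaged 5.61 in Pregnant and 5.66 in Non-pregnant glands, a low signal, so that its difference says little.

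Laminins are trimers of an alpha, a beta and a gamma chain, and 7 of the 9 laminin genes on the array were tested. Lamb2, a beta chain gene of mature basement membranes, had log2 intensities of 7.30 at the lowest, 7.81 at the median and 8.09 at the highest in Pregnant glands, against 8.51, 8.45, 8.54 and 8.61 in Non-pregnant glands. The Non-pregnant values lay close together and all stood above the highest Pregnant value. The log2 difference was -0.79 ± 0.14 (adjusted p = 0.00687), and the call held whichever single array was left out (adjusted p between 0.00454 and 0.0325).

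Lama5, an alpha chain gene of epithelial and vascular basement membranes, gave 6.29, 6.59 and 6.86 (lowest, median, highest) in Pregnant glands and 6.98, 7.00, 7.11 and 7.16 in Non-pregnant glands. Here too the groups did not overlap. The log2 difference was -0.49 ± 0.11 (adjusted p = 0.0264), and the call was lost without Non-pregnant replicate 1 (adjusted p = 0.0643) or 3 (adjusted p = 0.103).

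Lamc1 encodes the gamma chain that assembles with the Lama5 and Lamb2 products into a single laminin trimer. It gave 9.98, 10.14 and 10.24 (lowest, median, highest) in Pregnant glands against 10.44, 10.46, 10.47 and 10.20 in Non-pregnant glands, and only Non-pregnant replicate 4 lay within the Pregnant range. Its log2 difference was -0.27 ± 0.09 (adjusted p = 0.131) on all arrays and -0.33 ± 0.09 (adjusted p = 0.0433) without Non-pregnant replicate 4. Leaving out that array raised the calls over all named genes too, as given above. A second Lamc1 probe gave -0.12 ± 0.10 (adjusted p = 0.578).

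Lamc3, another gamma chain gene, went the other way. Its log2 intensity was 6.87, 7.21 and 7.57 (lowest, median, highest) in Pregnant glands and 6.58, 6.91, 6.28 and 6.72 in Non-pregnant glands, so that Pregnant replicate 3 and Non-pregnant replicate 2 overlapped. The log2 difference was 0.60 ± 0.14 (adjusted p = 0.0387). This call rested on single arrays: it was lost when any 1 of 7 arrays (Pregnant replicates 2, 4, 6, 7 and 8, and Non-pregnant replicates 1 and 3) was left out, with an adjusted p of up to 0.159. The other tested laminin genes were Lama1 at 0.25 ± 0.19, Lama2 at -0.07 ± 0.22 and Lamb3, and none of these was called. Without Non-pregnant replicate 4 Lama1 was at 0.06 and Lamb3 at 0.28, neither of them called.

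Among the 12 tested collagens outside the fibrillar and type IV classes, Col23a1, which encodes a transmembrane collagen, had 6.29, 6.72 and 7.15 (lowest, median, highest) in Pregnant glands and 7.75, 7.51, 7.96 and 7.28 in Non-pregnant glands. The groups did not overlap, and the log2 difference was -0.88 ± 0.18 (adjusted p = 0.0189). A second Col23a1 probe gave -0.35 ± 0.19 (adjusted p = 0.369), and the call of the first was lost without Non-pregnant replicate 1 (adjusted p = 0.0749) or 3 (adjusted p = 0.0925).

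Col8a1 and Col8a2 encode the chains of collagen VIII, a short-chain network collagen of vessel walls. Col8a1 gave 7.66, 7.93 and 8.08 (lowest, median, highest) in Pregnant glands against 8.29, 8.57, 8.38 and 8.13 in Non-pregnant glands. The log2 difference was -0.46 ± 0.11 (adjusted p = 0.0422), with no overlap, but a second probe gave -0.16 ± 0.19 (adjusted p = 0.725) and the call was lost when any 1 of 9 arrays (Pregnant replicates 1, 3, 5, 6, 7 and 8, and Non-pregnant replicates 1, 2 and 3) was left out. Col8a2 gave 7.30, 7.47 and 7.63 in Pregnant glands against 7.71, 7.78, 7.98 and 7.64 in Non-pregnant glands. Its groups did not overlap either, and its log2 difference of -0.32 ± 0.09 was not called (adjusted p = 0.0852). Without Non-pregnant replicate 4, a fit with more calls over all named genes as well, the Col8a2 difference was -0.37 ± 0.10 (adjusted p = 0.0440).

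Groups that did not overlap were thus found for 6 of 59 matrix genes (10.2%), namely Col17a1, Lamb2, Lama5, Col23a1, Col8a1 and Col8a2, against 3.19% of all named genes. The other 8 genes of this collagen class, among them Col6a1, Col15a1 and Col18a1, which surround cells and vessels, had log2 differences between -0.21 and 0.05, and none was called. Without Non-pregnant replicate 4 Col18a1 was at -0.42 (adjusted p = 0.0881).

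**Figure D2:**
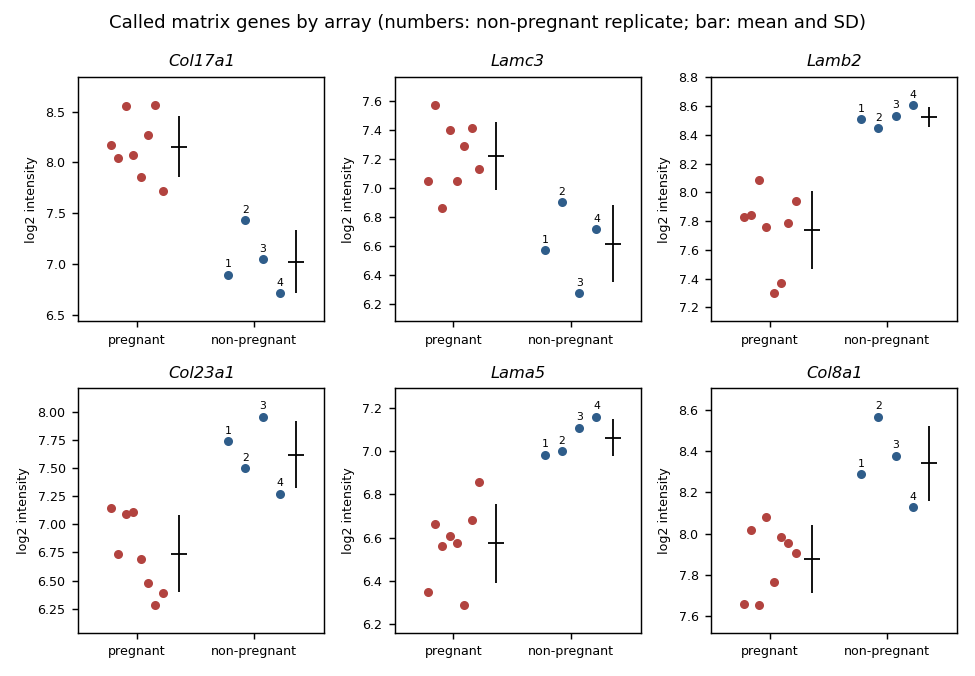
Log2 intensity (vertical axis) of the 6 called matrix genes on each array, with Pregnant glands (red, n = 8) left of Non-pregnant glands (blue, n = 4, numbered by replicate) and bars for the mean and SD. The groups are separate for all but Lamc3, in which 1 Pregnant array (6.87) lies below Non-pregnant replicate 2 (6.91).

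**Figure D3:**
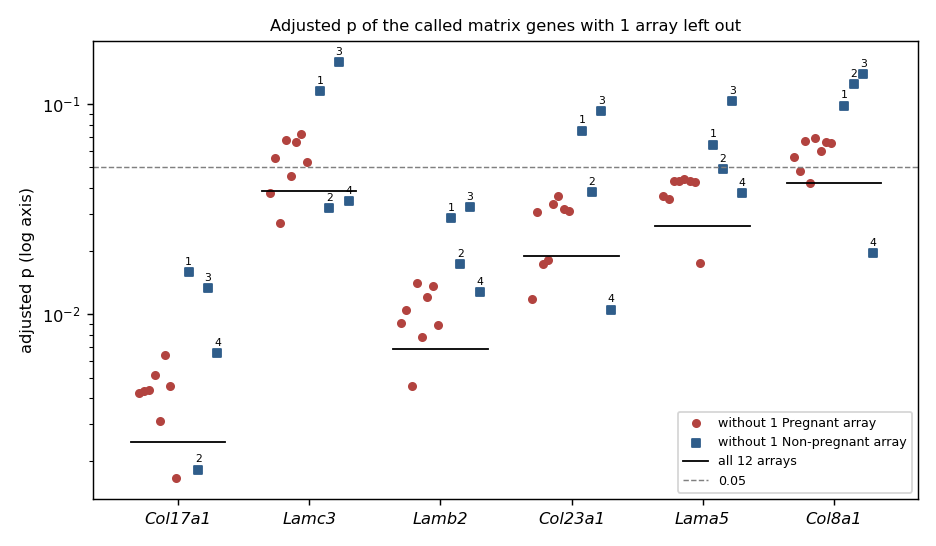
Adjusted p (vertical log axis) of the 6 called matrix genes when 1 array at a time is left out, with circles for a Pregnant array, squares for a numbered Non-pregnant array, a solid line for all 12 arrays and a dashed line at 0.05. Col17a1 and Lamb2 stay below 0.05 in all 12 fits, whereas Lamc3 is above it in 7 and Col8a1 in 9.

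The sequences just upstream of the transcription start of the 2 genes called in every such fit, and of Lama5, are shown because they differ in base composition and in matches to promoter motifs. They are the 250 bases before the RefSeq transcript start on GRCm38.p6, read 5′ to 3′ on the strand of the gene, at chr19:47692043-47692292 (minus strand) for Col17a1, chr9:108479612-108479861 (plus strand) for Lamb2 and chr2:180225860-180226109 (minus strand) for Lama5. Capitals mark the motifs searched on both strands, which were the TATA box (TATAAA), the GC box (GGGCGG) and the CCAAT box (CCAAT).
Col17a1: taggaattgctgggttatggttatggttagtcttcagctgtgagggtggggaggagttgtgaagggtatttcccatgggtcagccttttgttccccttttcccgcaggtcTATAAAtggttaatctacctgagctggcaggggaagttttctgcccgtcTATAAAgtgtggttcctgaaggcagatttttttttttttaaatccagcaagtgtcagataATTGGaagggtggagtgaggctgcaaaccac
Lamb2: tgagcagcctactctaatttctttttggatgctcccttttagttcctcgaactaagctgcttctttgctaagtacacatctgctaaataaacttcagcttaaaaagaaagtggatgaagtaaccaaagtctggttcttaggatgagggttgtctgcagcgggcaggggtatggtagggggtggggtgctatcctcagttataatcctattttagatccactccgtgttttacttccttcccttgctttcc
Lama5: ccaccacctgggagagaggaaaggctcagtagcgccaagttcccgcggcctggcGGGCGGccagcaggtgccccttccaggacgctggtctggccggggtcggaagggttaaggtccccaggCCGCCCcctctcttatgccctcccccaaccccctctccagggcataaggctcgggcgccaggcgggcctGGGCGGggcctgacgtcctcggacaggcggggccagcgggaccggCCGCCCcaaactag
The Col17a1 window matches the letters of the TATA box at 140 and at 91 bases before the start. It matches those of the CCAAT box, on the reverse strand, at 31 bases, and has a GC content of 46%. Whether any match acts as a promoter element was not tested. The Lama5 window holds 4 GC boxes and has a GC content of 72.4%, above the upper quartile of 61.2% over 32851 promoter windows of the same length. The Lamb2 window holds none of these motifs and has a GC content of 43.6%, below the lower quartile of 45.2%. Over all windows the TATA box occurred in 12.4%, the GC box in 32.7% and the CCAAT box in 33.8%, so that single matches are common. Windows were found for 5 of the 6 called genes. Of those not shown, the Col8a1 window holds 4 GC boxes and has a GC content of 60.8%, and the Col23a1 window holds 1 GC box and has 66%.

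The fibrillar collagens, which form the fibres of connective tissue, were tested for 8 of 11 genes and none was called, with log2 differences between -0.28 and 0.29. Col1a1, a chain of type I collagen, had log2 intensities of 7.01, 7.44 and 7.81 (lowest, median, highest) in Pregnant glands and 7.46, 7.83, 7.11 and 7.19 in Non-pregnant glands, a difference of 0.05 ± 0.17 (adjusted p = 0.919). Its partner chain gene Col1a2 gave 9.28, 9.48 and 10.08 in Pregnant glands and 9.69, 10.22, 9.75 and 9.58 in Non-pregnant glands, a difference of -0.28 ± 0.15 (adjusted p = 0.376). Col3a1, the type III collagen of soft tissues, differed by -0.03 ± 0.18 (adjusted p = 0.953). For each of these 3 genes the ranges of the groups overlapped and Non-pregnant replicate 2 was the highest Non-pregnant array.

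Type IV collagen makes the network of basement membranes. Col4a1 had 10.53, 10.90 and 11.04 (lowest, median, highest) in Pregnant glands and 10.76, 11.44, 10.43 and 10.70 in Non-pregnant glands, and Col4a2 had 9.36, 9.93 and 10.05 against 9.80, 10.28, 9.44 and 9.95. In both genes Non-pregnant replicate 2 was the highest and Non-pregnant replicate 3 the lowest of the Non-pregnant arrays, and the differences were -0.02 ± 0.16 and -0.06 ± 0.16 (adjusted p = 0.970 and 0.892). Col4a5, a chain of other type IV trimers, differed by -0.32 ± 0.13 (adjusted p = 0.233). The linkers Nid1 (nidogen), Nid2 and Hspg2 (perlecan, a heparan sulphate proteoglycan) differed by 0.16 ± 0.15, -0.02 ± 0.12 and 0.10 ± 0.14, and none was called (adjusted p of 0.634 or more).

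**Figure D4:**
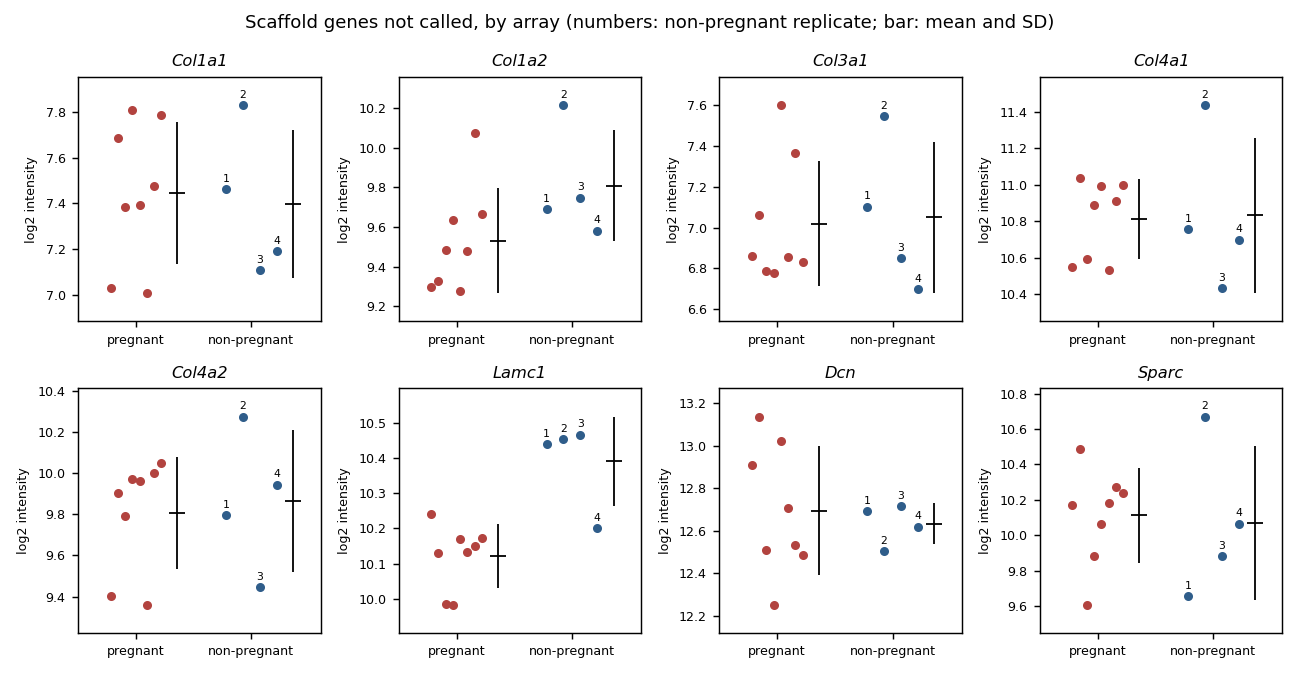
Log2 intensity (vertical axis) of 8 scaffold genes that were not called, on each array, with Pregnant glands (red, n = 8) left of Non-pregnant glands (blue, n = 4, numbered by replicate) and bars for the mean and SD. The groups overlap in every panel, Non-pregnant replicate 2 is the highest Non-pregnant array for both type I and both type IV chain genes, Col3a1 and Sparc, and for Lamc1 only Non-pregnant replicate 4 (10.20) lies among the Pregnant arrays.

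Among the proteoglycans, which coat collagen fibres, Dcn (decorin) had 12.25, 12.62 and 13.14 (lowest, median, highest) in Pregnant glands against 12.69, 12.50, 12.72 and 12.62 in Non-pregnant glands, a difference of 0.06 ± 0.15 (adjusted p = 0.878). The Pregnant values spanned the Non-pregnant ones on both sides. Lum (lumican) differed by -0.23 ± 0.19 on its brightest probe and by -0.51 ± 0.19 on another (adjusted p = 0.598 and 0.181), and Bgn (biglycan) by -0.24 ± 0.14 (adjusted p = 0.401). Of the glycoproteins that bind collagen and modulate adhesion, Sparc differed by 0.04 ± 0.18 and its relative Sparcl1 by -0.42 ± 0.22 (adjusted p = 0.929 and 0.359). The fibulin gene Fbln2, whose product bridges elastic fibres and basement membranes, differed by -0.44 ± 0.29 (adjusted p = 0.479) and had the widest SE among the genes not called.

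The proteases were tested for 9 of 21 MMP genes and 7 of 21 ADAMTS and ADAMTS-like genes, and none was called. The median log2 difference was -0.19 over the MMP genes, of which 8 of 9 were below 0, and -0.11 over the ADAMTS group. Without Non-pregnant replicate 2 these medians were -0.10, with 6 of 9 MMP genes below 0, and -0.02. Among the MMP genes below 0 on all arrays, Mmp17 was detected on 2 Pregnant and 3 Non-pregnant arrays, Mmp28 on 1 and 3, and Mmp16 on 4 and 3. Mmp17 and Mmp28 thus passed the detection filter mostly through the group in which they were higher. Mmp2, the gelatinase that also cuts type IV collagen, had 7.27, 7.96 and 8.25 (lowest, median, highest) in Pregnant glands against 8.67, 8.39, 8.29 and 7.98 in Non-pregnant glands. Non-pregnant replicate 4 alone lay within the Pregnant range, and the difference was -0.43 ± 0.18 (adjusted p = 0.227). Mmp14, which encodes the membrane-bound activator of that gelatinase, had 10.14, 10.36 and 10.78 in Pregnant glands against 10.91, 10.77, 10.65 and 10.33 in Non-pregnant glands, a difference of -0.28 ± 0.15 (adjusted p = 0.357). Mmp9, the other gelatinase, was the only MMP gene above 0, at 0.25 ± 0.15 (adjusted p = 0.438).

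Of the inhibitors, Timp2 differed by -0.13 ± 0.10, Timp3, which binds to the matrix, by -0.04 ± 0.09 and Timp1 by 0.12 ± 0.16 (adjusted p = 0.552, 0.866 and 0.757). Timp2 had 12.22, 12.32 and 12.41 (lowest, median, highest) in Pregnant glands and 12.28, 12.74, 12.46 and 12.31 in Non-pregnant glands, with Non-pregnant replicate 2 above all other arrays. In the ADAMTS group, Adamtsl2, whose product binds latent TGF-beta carriers, differed by -0.40 ± 0.16, Adamts9, a proteoglycan-cleaving protease, by -0.30 ± 0.13 and Adamts1, another such protease, by 0.00 ± 0.16 (adjusted p = 0.226, 0.243 and 0.994). The Adamtsl2 probe was detected on 2 Pregnant and 4 Non-pregnant arrays. It thus passed the detection filter mostly through the group in which it was higher.

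For the 53 tested genes that were not called, the SE of the log2 difference ranged between 0.09 and 0.29, with a median of 0.16. The 95% confidence interval of the difference lay within 2-fold in both directions for 52 of these genes, but within the fold threshold for only 7. In whole glands fewer cells of a type and less RNA per cell cannot be told apart.

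The other 53 matrix genes on the array did not pass the detection filter. No probe was detected on any array for 41 of them, including Fn1 (fibronectin, 4 probes), Vcan (versican, 6 probes), Postn (3 probes), Col5a2 (5 probes) and Timp4. For another 12 genes a probe was detected on 1 to 3 arrays, among them Eln, Lamb1, Tnc, Lama4 and Mmp13. Just inside the filter, at 4 arrays, lay Adamts13 (3 Pregnant, 1 Non-pregnant) and Mmp28 (1 Pregnant, 3 Non-pregnant), with median raw intensities of 166.3 and 178.8. Just outside it, at 3 arrays, lay Col9a1, Mmp11, Mmp13, Tnc and a second probe of Lamc3, with median raw intensities between 168.9 and 175.4. Of the 84 tested probes, 64 were detected on all 12 arrays, including the brightest probe of each called gene.

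Mean levels over the matrix genes also differed between arrays of the same group, and Non-pregnant replicate 2 had the highest. Correlations between matrix genes were not computed. Non-pregnant replicate 2 was the highest of the 12 arrays for 20 of 59 matrix genes (33.9%) and for 14.1% of all named genes. Its mean deviation over the matrix genes was 0.22, against -0.14 to 0.06 on the Pregnant arrays and -0.04 to 0.04 on the other Non-pregnant arrays. The same array was at 0.32 for the fibrillar collagens (other Non-pregnant arrays -0.15 to -0.01) and at 0.41 for the type IV collagens (other Non-pregnant arrays -0.19 to 0.09), but at -0.09 for the proteoglycans (other Non-pregnant arrays 0.11 to 0.12). Endothelial marker genes were high on it too, with a mean deviation of 0.36 over 12 genes against -0.17 to 0.07 on the other Non-pregnant arrays, and Pregnant replicate 1 had the lowest mean deviation of all arrays both for endothelial markers (-0.44) and for type IV collagens (-0.34). Not every array followed this pattern: Pregnant replicate 4 was the highest Pregnant array for endothelial markers (0.20) and at -0.08 for type IV collagens. The part of endothelial cells in the matrix levels was not tested.

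**Figure D5:**
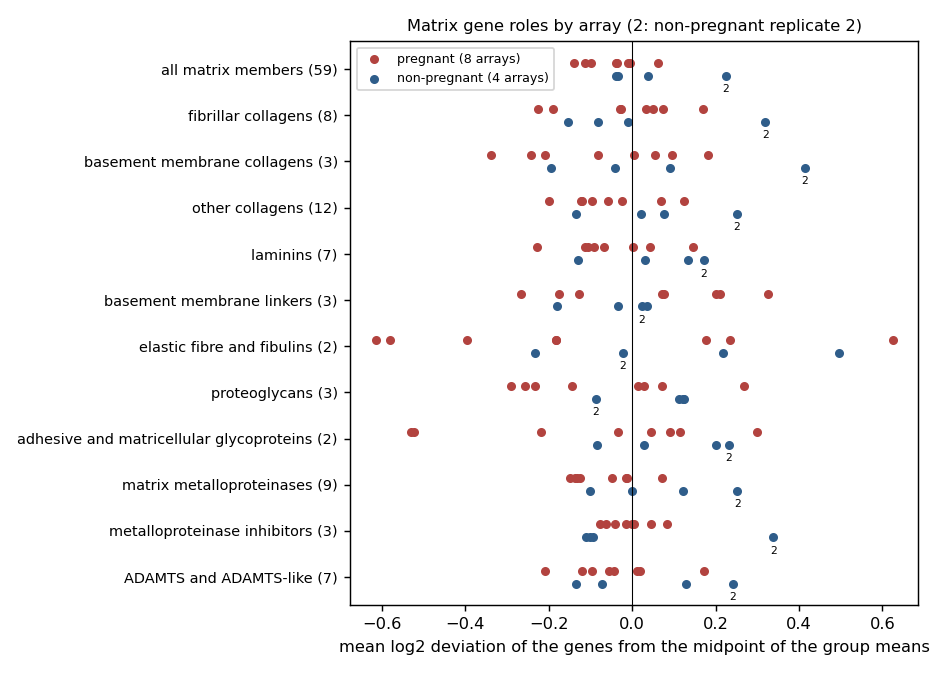
Mean log2 deviation from the midpoint of the group means (horizontal axis) over the genes of each role, with a point for each array, Pregnant (red, n = 8) above Non-pregnant (blue, n = 4), and Non-pregnant replicate 2 numbered. The groups overlap in every role, and Non-pregnant replicate 2 lies at 0.22 over all 59 genes, above the other 11 arrays.

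Markers of the cells that make or border the matrix were examined beside these genes. Of 8 tested fibroblast markers outside the matrix genes 1 was called, Meox1, a mesenchymal homeobox gene, at 0.65 ± 0.13 (adjusted p = 0.0184), and the median was -0.00. None of 9 pericyte and smooth muscle markers was called (median -0.03), nor any of 12 endothelial markers (median -0.08), where the smallest p belonged to Tek, the angiopoietin receptor, at -0.35 ± 0.15 (adjusted p = 0.253). Mean deviations over the fibroblast markers ranged between -0.22 and 0.18 on the Pregnant arrays and between -0.13 and 0.08 on the Non-pregnant arrays. Markers of stem and folliculostellate cells, which line the marginal zone, had a median of -0.30 over 6 tested genes, with mean deviations of -0.21 to -0.06 on the Pregnant arrays and -0.00 to 0.26 on the Non-pregnant arrays, which did not overlap. In that list Lhx3, a pituitary homeobox gene, was called lower on probes other than its brightest (-0.42 ± 0.09, adjusted p = 0.0220; -0.34 ± 0.11, adjusted p = 0.120, on the brightest). Of 8 macrophage markers Lyz2 (lysozyme) was called on 1 probe at -1.05 ± 0.24 (adjusted p = 0.0337), while its brightest probe gave -0.87 ± 0.23 (adjusted p = 0.0608). The part of these cells in the laminin and collagen differences was not tested.

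Genes that act on the matrix from outside the families above were examined as lists. Of 20 tested genes for collagen synthesis and cross-linking, 1 was called, P4ha2, which encodes a catalytic subunit of the prolyl hydroxylase that stabilises the collagen helix. P4ha2 averaged 10.85 ± 0.26 in Pregnant glands (SD, n = 8) and 10.12 ± 0.16 in Non-pregnant glands (SD, n = 4), with no overlap, and the log2 difference was 0.73 ± 0.14 (adjusted p = 0.0121) on its brightest probe and 0.78 ± 0.17 (adjusted p = 0.0266) on another. The median of this list was 0.12, with 5 of 20 genes below 0, where the matrix genes had -0.06. Plod2, a lysyl hydroxylase gene, differed by 0.48 ± 0.13 and Pcolce2, an enhancer of procollagen processing, by -0.62 ± 0.17, and neither was called (adjusted p = 0.0656 and 0.0644).

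Of 16 tested matrix receptor genes only Sdc4, a cell surface heparan sulphate proteoglycan, was called, at -0.42 ± 0.09 (adjusted p = 0.0274). It averaged 9.68 ± 0.06 in Pregnant glands (SD, n = 8) and 10.10 ± 0.19 in Non-pregnant glands (SD, n = 4). Its relative Sdc2 differed by -0.38 ± 0.10 with no overlap and the collagen receptor gene Ddr1 by -0.25 ± 0.09, and neither was called (adjusted p = 0.0645 and 0.173). The median of the receptor list was -0.14, and 12 of 16 genes were below 0. None of 13 genes of TGF-beta and its matrix carriers was called, with Thbs2, a thrombospondin gene, at -0.56 ± 0.16 and the latent TGF-beta carriers Ltbp4 and Ltbp3 at -0.27 ± 0.10 and -0.21 ± 0.09 (adjusted p = 0.0735, 0.156 and 0.238). None of 11 genes of the plasminogen system and other matrix proteases was called either (median -0.11). Reck, a membrane inhibitor of MMPs, differed by -0.20 ± 0.12 on its brightest probe and by -0.39 ± 0.12 on another (adjusted p = 0.402 and 0.0954). Ctsk, a collagen-cutting cathepsin, differed by -0.22 ± 0.14 (adjusted p = 0.439).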

How the data were processed

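Total RNA of whole pituitaries was profiled on Illumina bead arrays, 1 per gland, for 8 Pregnant and 4 Non-pregnant females. The authors deposited raw linear intensity values of 45281 probes on each array, with no background subtracted, and beside each value its detection p-value. A second deposited table holds intensity values that the authors quantile normalised with lumi (version not stated in those sources). Its columns rank the probes as the raw ones do, with medians between 148.81 and 148.91, and its log2 values were used only as an alternative. The study's methods also name a variance stabilising transformation, but the deposited values are on a linear scale.

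Raw intensities were background-corrected by the normexp method of limma (version 3.58.1, run under R 4.3.3; offset 16; control bead signals inferred through the detection p-values), then quantile normalised and taken to log2. Probes with a detection p under 0.05 on at least 4 of 12 arrays (18626) were fitted with lmFit and eBayes, and the two-sided p-values were adjusted over all of them by the Benjamini-Hochberg method. All adjusted p-values are from this fit unless another is named. A probe was called at an adjusted p under 0.05 with a difference of 1.25-fold or more, which are the study's thresholds. Differences are Pregnant minus Non-pregnant on the log2 scale, with their SE. The probe with the highest mean stands for a gene, and levels are not compared between genes. In the platform annotation 34885 probes had 1 gene, 18 had several and 10378 had none. By gene ID 34807 of those with 1 gene were found in RefSeq (GRCm38.p6), which also gave the promoter windows. Fbn1, Col12a1 and Lama3 were not analysed here.

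Named genes are those called, the 12 matrix genes of smallest p, the one of smallest p in each role, a fixed set of well-known matrix genes where tested, and the called genes and up to 3 genes of smallest p in each other list. The matrix genes, roles and lists were chosen with earlier results of these data known. Adamts19, Itga6, Itgb4, Lama1, Lama2, Lamb3, Mmp16, Mmp17 and Nid2, examples from lists with no call and genes at the edge of the detection filter are named outside this rule, after their values were seen. Nothing ties animals to litters, so animals were treated as independent. The number of arrays limits the precision. On simulated data with 18626 probes, 88 of 100 probes changed 2-fold and 45 of 100 changed 1.5-fold were called, with 10 false calls.

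Alternatives were no background correction, an offset of 50, median scaling, the processed table, no or a stricter detection filter, trend and robust eBayes, array weights, the mean of a gene's probes, no minimum fold, replicate number as a block, and each array left out.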

Additional observations from a re-analysis of the deposited data

Results flagged for a closer look

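A value was looked at again when 1 array of a group stood apart from the rest by Dixon's test at the 95% level, which chance alone would do in about 1 of 20 groups of values. The values checked were those of the matrix genes chosen by the naming rule, and the mean deviations of the role groups and of all matrix genes, in each group of arrays. Genes named outside that rule, such as Adamts19, and genes of the other lists were not checked. Of 86 groups of values checked, 6 had such an array. Lamc1 was at 10.20 on Non-pregnant replicate 4, against 10.44 to 10.47 on the other Non-pregnant arrays. Bgn was at 10.51 on Pregnant replicate 1, against 10.97 to 11.31 on the other Pregnant arrays. Mmp9 was at 6.98 on Pregnant replicate 5, against 6.28 to 6.60, and Timp3 at 11.32 on Non-pregnant replicate 1, against 11.54 to 11.56. Non-pregnant replicate 2 stood apart for a pair of role groups: the mean deviation of the metalloproteinase inhibitor genes was 0.34, against -0.11 to -0.09 on the other Non-pregnant arrays, and that of the proteoglycan genes was -0.087, against 0.11 to 0.12.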

How the results depend on the processing

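Col17a1 was called higher under every alternative run, and Lamb2 was called lower under all but the fit with replicate number as a block. Sizes were smaller without background correction and from the processed table: the log2 difference of Col17a1 was 0.68 and 0.69, that of Lamb2 -0.54 in both, and that of Col23a1 -0.47 and -0.48. Counts of called matrix genes were 1 higher and 2 lower without background correction and from the processed table, 1 higher without the detection filter, and 2 lower from the mean of a gene's probes. Over all named genes, 194 were called higher and 212 lower without background correction, against 163 and 169 with it. Over the alternatives that kept all arrays, these counts ran between 60 and 544 higher and between 33 and 646 lower. With 1 array left out, the counts of called matrix genes ranged between 1 and 3 higher and between 1 and 6 lower. Over all named genes there were then 59 to 400 higher and 54 to 475 lower, and the matrix median lay between -0.12 and -0.00. The matrix genes called without Non-pregnant replicate 4 and not on all arrays were Adamts19, Col8a2 and Lamc1. Array weights gave 544 higher and 646 lower over all named genes. With replicate number as a block, 1 matrix gene was higher (Col17a1) and 0 were lower, with 60 and 33 over all named genes. The labels do not say whether the numbers pair the animals. Deviations of same-numbered arrays correlated at 0.16, 0.06, 0.01 and 0.20, which cannot decide it, since differently numbered arrays were not compared. Lama5, Lamc3 and Col8a1 were not called without background correction (log2 differences of -0.23, 0.29 and -0.32). Among the genes chosen by the naming rule, signs turned for genes near 0: Timp3 and Col4a1 (0.0082 and 0.011 under median scaling), Col4a2, Col3a1 and Col4a1 (0.12, 0.021 and 0.13 with array weights), Sparc (-0.036 from the mean of its probes, -0.031 with the block) and Adamts1 (-0.15 with the block). With 1 array left out, the range crossed 0 for 23 of 59 matrix genes, none of them called. Those named by the rule were Col4a1 (-0.15 to 0.18), Adamts1 (-0.093 to 0.067), Dcn (-0.0026 to 0.12), Sparc (-0.093 to 0.24), Col3a1 (-0.15 to 0.13), Col1a1 (-0.048 to 0.19), Hspg2 (-0.0094 to 0.16), Col4a2 (-0.20 to 0.077) and Timp1 (-0.0034 to 0.33). The causes were not tested. The chip as a block was not run, since the headers name no chip.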

Other observations

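Adamts19, a metalloproteinase gene named here after its values were seen, had log2 intensities between 6.75 and 7.31 on the Pregnant arrays and 6.45, 6.36, 6.49 and 7.77 on the Non-pregnant arrays. Non-pregnant replicate 4 was the highest of all 12 arrays and the other Non-pregnant arrays were below every Pregnant array. The log2 difference was 0.24 ± 0.21 on all arrays (limma, adjusted p = 0.608) and 0.58 ± 0.12 without Non-pregnant replicate 4 (limma, adjusted p = 0.0122). The gene was named because that array ran against the others, so the p-value without it is no test of the gene. Without that array 400 of all named genes were called higher and 475 lower, against 163 and 169 on all arrays.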
